A study of Mus musculus with 4 samples.

Results

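The genes described here are 8 nucleolar factors of ribosome biogenesis: Ncl, Nop58, Nop56, Fbl, Npm1, Dkc1, Nolc1 and Bop1. They were followed through lists of RNA regions enriched for m6A (N6-methyladenosine, a methylated form of adenosine), by taking every listed peak that named them. Of the 8 genes, 5 had a peak in at least 1 library and 3 had none, out of 9949 genes with a peak in the whole series. Their 29 peaks were among 46417 in all. The series compared wild-type mouse embryonic stem cells (2 libraries) with Mettl5-/- mouse embryonic stem cells (2 libraries), all of strain C57BL/6N. Mettl5 is an RNA methyltransferase whose known m6A target is the 18S ribosomal RNA. Total RNA was fragmented, immunoprecipitated with an anti-m6A antibody and then sequenced, an assay known as MeRIP-seq. The labels' protocols also describe spontaneous and neural differentiation but tie neither to these 4 libraries, whose titles call them embryonic stem cells. How the knockout was made, and whether libraries of the same genotype are separate clones or cultures, is not given in the sources used here, so the spread between libraries may be technical.

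Ribosomes are assembled in the nucleolus, where RNA polymerase I transcribes the precursor of the ribosomal RNAs and small nucleolar RNAs (snoRNAs) guide its chemical modification. Box C/D snoRNAs work in a particle with Nop56, Nop58 and the methyltransferase Fbl (fibrillarin), which methylates riboses. Box H/ACA snoRNAs work with the pseudouridine synthase Dkc1 (dyskerin). Ncl (nucleolin) and Npm1 (nucleophosmin) are abundant nucleolar phosphoproteins, Nolc1 is a nucleolar and Cajal body phosphoprotein that binds snoRNA particles, and Bop1 acts with Pes1 and Wdr12 in assembly of the large subunit. Many snoRNAs are released from introns of host genes, and several of these 8 genes are such hosts.

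Wild type 1 had 11696 listed peaks, wild type 2 had 11201, knockout 1 had 12699 and knockout 2 had 10821. The wild-type libraries carry different titles, Ctr and WT, with no number, and were numbered here by the order of their records. Both are labelled wild type, and whether they share a source is not known. Read depth is unknown here, so no counting interval can be set and a gene without a peak cannot be called unmethylated. Mettl5 itself had 0 peaks, so they give no check on the labelled genotypes. Of 10 markers of embryonic stem cells, 7 had a peak in some library and 6 in all 4; Nanog, Zfp42 and Dppa5a had none. Of 6 neural markers, some library had a peak in 4 and every library in 2. The same counts were 2 and 2 of 6 fibroblast markers, and 3 and 0 of 6 markers of extra-embryonic lineages. Over all protein-coding symbols in RefSeq the shares were 37.7% in some library and 22.1% in all 4. A listed peak is not a measure of RNA level, so these counts do not settle the cell type. Knockout 1 stood apart by its longer list, by 238 peaks with an adjusted p-value of 0.05 or more (22 to 25 in the other libraries) and by a lower median fold enrichment (19.2, against 22.4 to 26.6). Results that rest on it are given without it as well.

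The peaks of the nucleolar factors formed 9 separate sites, with 6 listed in every library, 1 in 3 libraries and 2 in knockout 1 alone. Ncl, Nop58, Nop56 and Fbl had a peak in all 4 libraries. This was 4 of the 5 members with any peak, beside 57.1% of all genes with a peak. No member was listed for both wild-type libraries while missing from the knockout (1.56% of all genes), and none showed the reverse (2.27%). At the level of sites, 6 of 9 were found in every library, beside 42.5% of all 15487 regions. With 2 against 2 libraries the smallest p of a two-sided exact permutation test is 0.333, so the genotypes were described and not tested.

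**Figure D1:**
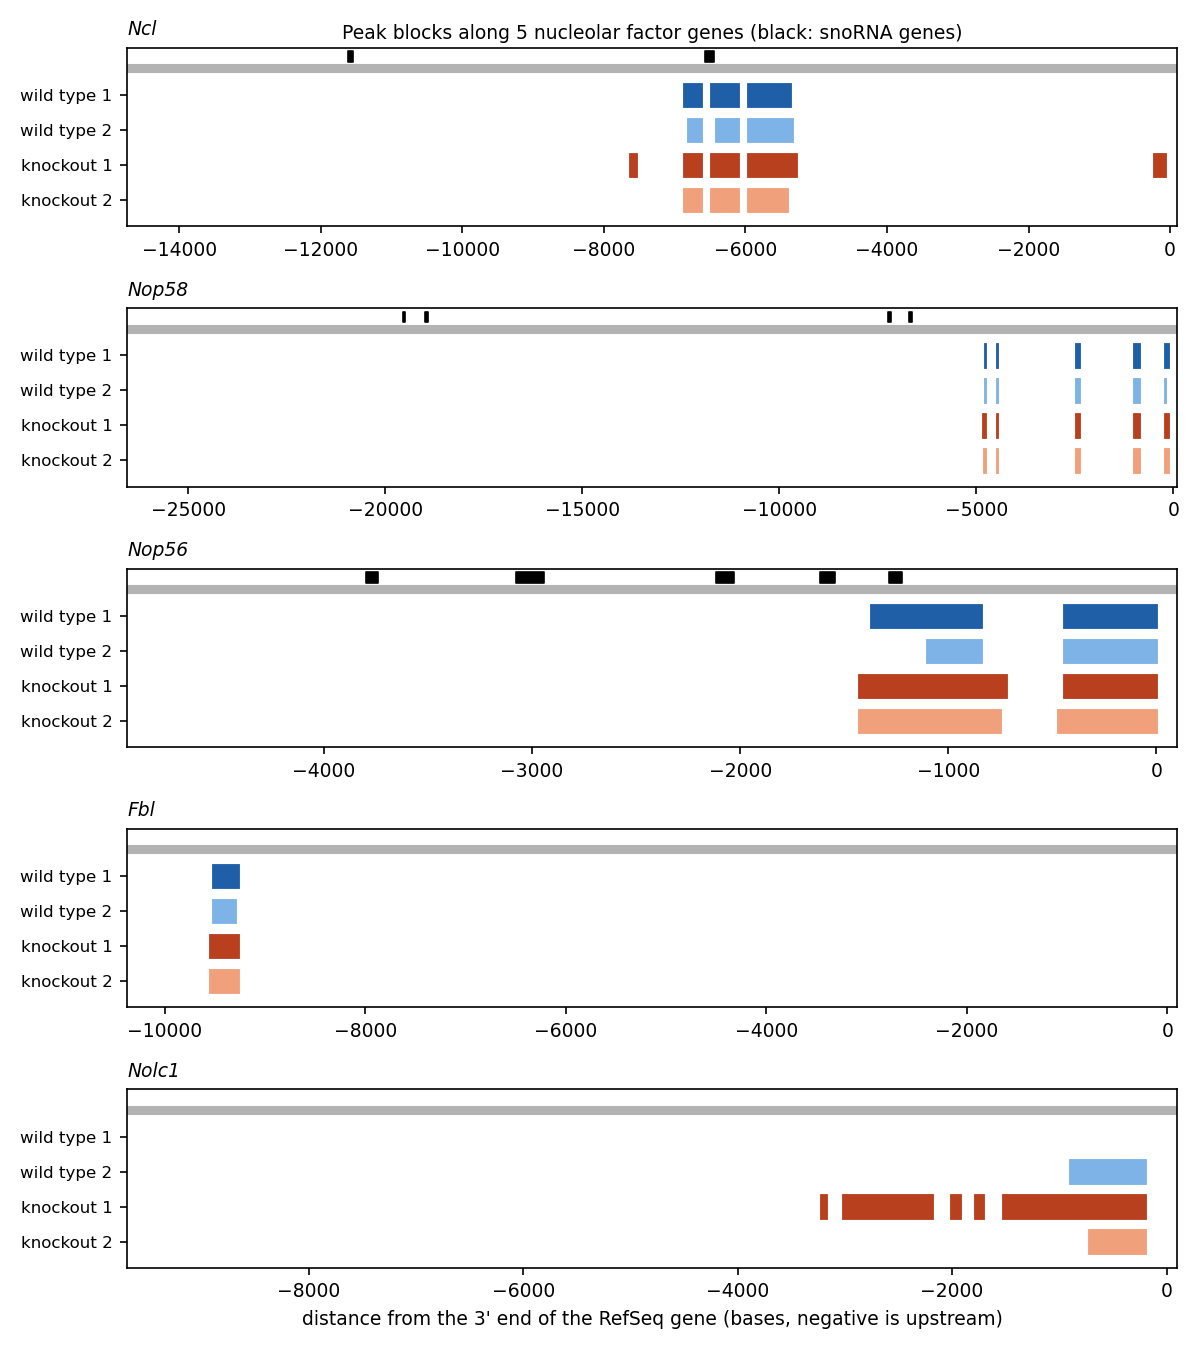
Peak blocks of Ncl, Nop58, Nop56, Fbl and Nolc1 by library, drawn to scale as the distance in bases from the 3' end of the RefSeq gene; the grey bar is the whole gene, black marks are annotated snoRNA genes, and blue and red bars are exon blocks of wild-type and knockout peaks. The same sites recur in the 4 libraries except for Nolc1, which has no peak in wild type 1, and for the outer Ncl sites of knockout 1.

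The box C/D particle genes Nop58, Nop56 and Fbl were present in every library. Nop58 encodes a core protein of the particle that holds the guide snoRNA. It had a single peak per library, over the same 5 exon blocks each time, within positions 59706655 to 59711403 of chromosome 1 (mm10) on the plus strand. The authors classed it as coding sequence. It covered 540 and 450 bases in wild type 1 and 2, and 600 and 570 bases in knockout 1 and 2. Its 5 blocks in every library are an uncommon form, since 0.599% of all peaks had 5 or more blocks and 89.2% had 1. The libraries shared 450 of the 600 bases covered in any of them, and the peak ended 107 bases before the 3' end of the gene in 3 libraries and 197 bases before it in wild type 2.

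The strength of a peak is given here as the percentile of its p-value within its own list, 100 being the strongest. The Nop58 peak stood at 96.8 and 92.5 in wild type and at 98.5 and 97.1 in the knockout. Its fold enrichment, the authors' own value for each peak over a background that the lists do not name, was 6.37 and 4.07 in wild type and 15.7 and 9.63 in the knockout. By fold the same peak stood at percentiles of 6.50 and 4.02 in wild type and 43.6 and 19.6 in the knockout. Both knockout libraries lay above both wild-type libraries on either rank, and wild type 2 was lowest on both.

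Nop56, the partner of Nop58 in the particle, had 2 sites in every library, both in its last 1437 bases and both classed as exon with no finer part. The downstream site reached the very end of the gene, at position 130279313 of chromosome 2, and was nearly the same in all libraries: 450 bases in 3 of them and 480 bases in knockout 2. Its strength percentile was 92.5 and 90.9 in wild type and 99.5 and 92.7 in the knockout, with folds of 23.4 and 48.1 in wild type and 37.4 and 17.0 in the knockout. The knockout percentiles were above the wild-type ones, by a small margin for knockout 2, while the folds overlapped. In knockout 1 the p-value of this peak has no finite log10, so it is tied with 138 other peaks at the top of that list.

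The upstream site of Nop56 varied most in extent among the sites found in every library. It covered 539 and 270 bases in wild type and 719 and 689 bases in the knockout, within positions 130277877 to 130278595. Only 270 bases, or 37.6% of the union, were common to all 4 libraries. The strength percentiles were 73.9 and 70.0 in wild type and 85.3 and 78.8 in the knockout, at folds of 11.8, 6.10, 13.7 and 13.6 in the same order. Both measures were lowest in wild type 2, the library with the shortest peak.

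Fbl, the methyltransferase of the particle, carried its peak near the 5' end of the gene, unlike the other members with a peak. It lay within positions 28169710 to 28170008 of chromosome 7, 817 bases or more from the annotated gene start and at least 9261 bases from its end, and was classed as exon. It covered 269 and 240 bases in wild type and 299 bases in each knockout library. It was the weakest of the 6 sites found in every library in all lists but wild type 1, where the upstream Nop56 site was weaker, at strength percentiles of 76.0 and 58.8 in wild type and 84.6 and 66.2 in the knockout, so the genotypes overlapped. The folds were 2.43 and 1.54 in wild type and 9.08 and 2.66 in the knockout. In wild type 2 only 17 of 11201 peaks had a lower fold.

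Ncl, which encodes a nucleolar RNA-binding protein that acts on the ribosomal RNA precursor, had the strongest member peak by p-value in wild type 1, wild type 2 and knockout 2, and in knockout 1 it tied at the top with the downstream Nop56 site. This main site, the third from the 5' end, lay within positions 86349992 to 86351216 of chromosome 1 on the minus strand, as 2 exon blocks that together covered 1020 and 990 bases in wild type and 1110 and 990 bases in the knockout. The libraries shared 930 of 1110 bases. The strength percentile was 99.4 and 98.2 in wild type and 99.5 and 98.1 in the knockout, and the fold 246 and 95.6 in wild type and 236 and 80.9 in the knockout. The genotypes overlapped, and the higher values were those of wild type 1 and knockout 1. In those libraries the p-value has no finite log10, so the peak is tied with 151 and 138 others at the top of the list.

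The transcript class of the main Ncl site differed between libraries although the peaks overlapped almost fully. It was listed as coding sequence in wild type 1 and knockout 2 and as 3' untranslated region in wild type 2 and knockout 1. The site lay 5273 to 5393 bases before the 3' end of the RefSeq gene. The libraries that list it as untranslated are those whose peak reaches furthest downstream, 1 of each genotype. Whether another transcript model places an untranslated region there was not analysed here.

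A second Ncl site lay upstream of the main one, in coding sequence at positions 86351336 to 86351605. It covered 270 bases in 3 libraries and 210 bases in wild type 2. Its strength percentile was 87.5 and 80.5 in wild type and 95.0 and 91.0 in the knockout, with folds of 3.21 and 2.17 in wild type and 6.53 and 3.51 in the knockout. Both knockout libraries lay above both wild-type libraries on either measure. Ncl and Nop56 each had 2 sites in every library, as 11.3% of all genes with a peak did. The remaining Ncl sites were in knockout 1 alone and were weak: a coding site of 121 bases at a percentile of 31.6 and a fold of 1.35, and a site of 181 bases in the 3' untranslated region, 60 bases from the gene end, at a percentile of 22.7 and a fold of 8.81. Sites of a single library made 28.3% of all regions.

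Nolc1 was the member whose listing varied most. It had no peak in wild type 1 and 1 peak in each of the other libraries, a pattern shared by 2.54% of all genes. In wild type 2 the peak covered 718 bases of the 3' untranslated region, at a strength percentile of 69.1 and a fold of 26.3. In knockout 2 it covered 539 bases of the same part, at a percentile of 82.9 and a fold of 26.4. In knockout 1 a single listed peak of 2451 bases ran over 5 blocks, from position 46082314 to 46085351 of chromosome 19, was classed as coding sequence and had a percentile of 97.9 and a fold of 141. All 3 peaks ended at the same base, 192 bases before the end of the gene, and had 539 bases in common, 22.0% of their union. Without wild type 2, Nolc1 would count as a knockout-only gene, the only member to do so when a library was left out. Without wild type 1 it would count as present in every library.

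Npm1, Dkc1 and Bop1 had no peak in any list. No peak of another gene lay within the RefSeq spans of these 3 genes or of the other 5, so none had been listed under an overlapping name. Of 21900 protein-coding symbols in RefSeq, 37.7% had a peak in some library and 22.1% in all 4. RNA levels were not analysed here, so it cannot be said whether these transcripts were scarce or were sequenced and not enriched. In bulk RNA a lower level per cell and fewer cells that express a gene cannot be told apart either.

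**Figure D2:**
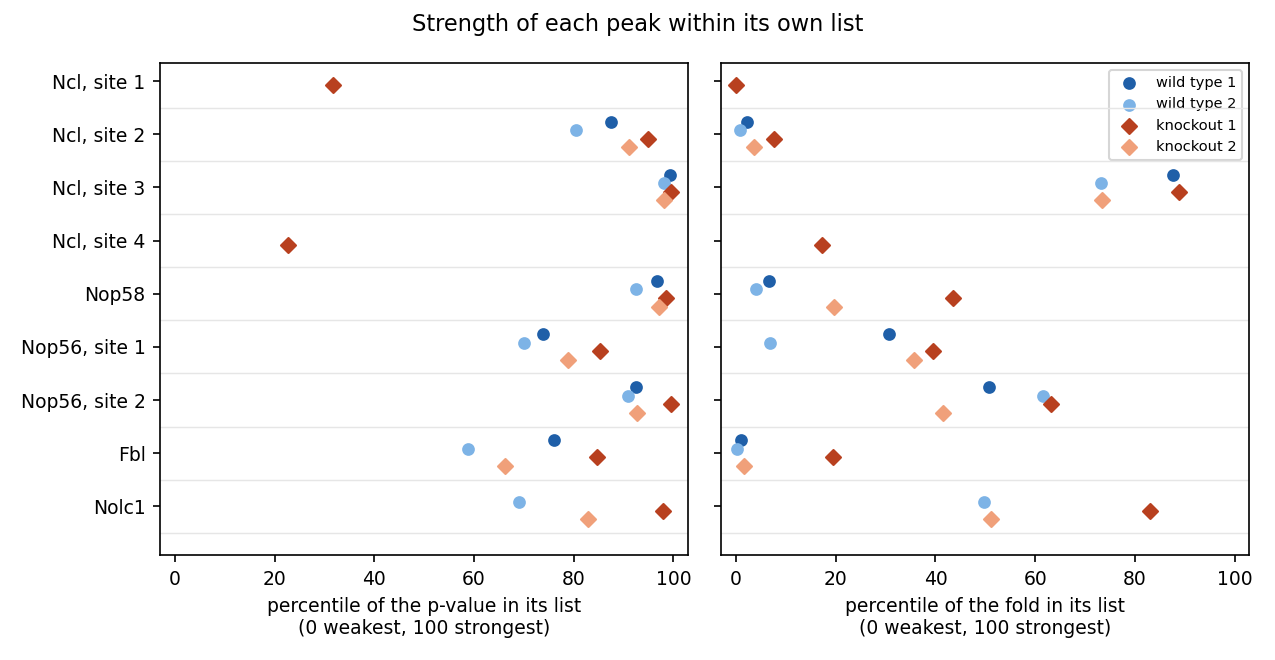
Percentile of each peak's p-value (left) and fold enrichment (right) within its own list, 0 to 100, by site and library; circles are wild-type and diamonds knockout libraries, and sites of a gene are numbered from its 5' end. The main Ncl site is above 98 in every library by p-value, whereas Nop58, Fbl and the second Ncl site are far lower by fold than by p-value.

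Most peaks of these genes had a lower fold than peaks of like p-value in the same list. Of the 29 peaks, 15 stood above the 90th percentile of their list by p-value, and 7 of those 15 were below the 50th percentile by fold. Among all 4642 peaks above the 90th percentile by p-value, 4.16% were below the 50th by fold, between 3.17% and 5.45% in single libraries. The 7 were the 4 Nop58 peaks, the second Ncl site in both knockout libraries and the downstream Nop56 site in knockout 2. The 29 peaks belong to 5 genes and recur over the 4 libraries, so these are not independent cases.

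Each peak was then set beside the peaks within 1 percentile of it by p-value in the same list. In 28 of 29 cases its fold was below the median of those peaks; the exception was the weak Ncl site in the 3' untranslated region of knockout 1. For Nop58 the median fold of such peaks was 462 in wild type 1, 331 in wild type 2, 382 in knockout 1 and 232 in knockout 2, where Nop58 itself had between 4.07 and 15.7. For Fbl it was 148, 63.6, 230 and 63.1 in the same order, against 1.54 to 9.08. The main Ncl site came closest, with 330, 285, 342 and 214 against 246, 95.6, 236 and 80.9. The levels of these RNAs, which bear on both measures, were not analysed here.

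**Figure D3:**
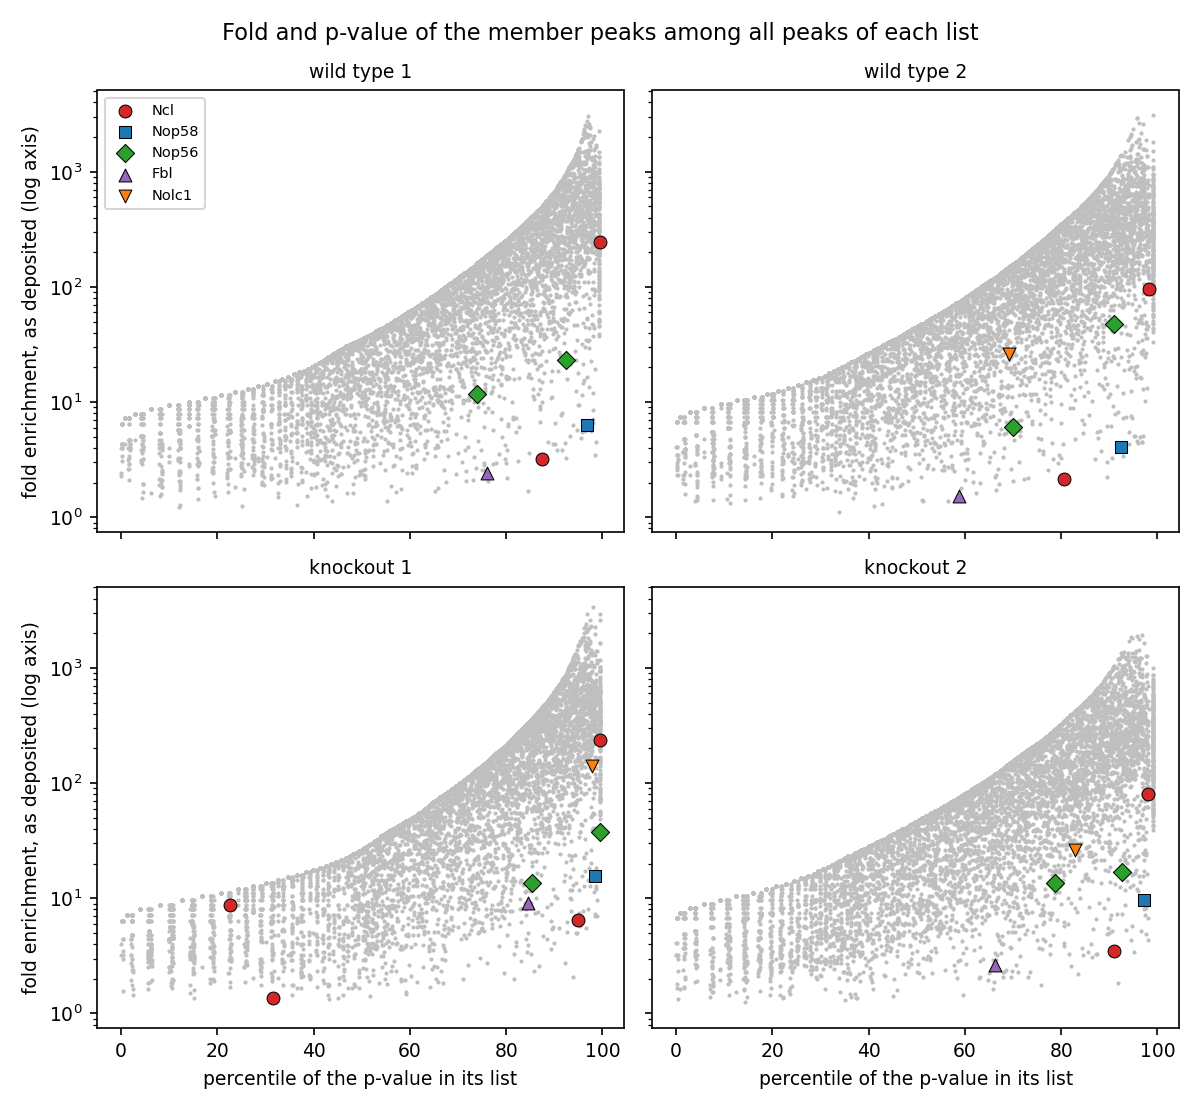
Fold enrichment as deposited (log axis) against the percentile of the p-value for every peak of each list, with 1 panel per library; grey points are all peaks and coloured symbols are the peaks of Ncl, Nop58, Nop56, Fbl and Nolc1. Most of the coloured symbols lie along the lower edge of the grey points, and the main Ncl site lies within them.

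Among the 6 sites found in every library, 4 had both knockout percentiles above both wild-type ones by p-value: Nop58, both Nop56 sites and the second Ncl site. None had the reverse order. Over all 6589 regions found in every library the shares were 16.6% and 10.1%. Ranks from lists of different length do not show a change, so the ranks were also taken among those 6589 regions alone, the same set in each library. The same 4 sites kept the order, and none had the reverse, beside 19.5% and 21.5% of all such regions. By fold within that set, 3 of 6 (Nop58, Fbl and the second Ncl site) had the knockout above, beside 17.6%, and none the reverse, beside 18.4%. Fbl and the second Ncl site were near the bottom of the set by fold in every library. Fbl had fold percentiles of 0.152 and 0.0607 in wild type and 5.27 and 0.637 in the knockout. The second Ncl site had 0.653 and 0.357 in wild type and 2.35 and 1.56 in the knockout. In that set Nop58 had p-value percentiles of 95.9 and 90.2 in wild type and 97.7 and 96.7 in the knockout. The upstream Nop56 site had 64.5 and 60.3 in wild type and 76.6 and 74.6 in the knockout.

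The width of the peaks went the same way at some sites. Nop58, Fbl and the upstream Nop56 site covered more bases in both knockout libraries than in either wild-type library, 3 of 6 sites beside 11.3% of the shared regions, and no member site had the reverse, beside 10.7%. The wider nucleolar list described below has 54 shared regions of other genes. Of these, 7 (13%) covered more bases in both knockout libraries and 1 (1.85%) in both wild-type libraries. By p-value within the shared set, 15 (27.8%) had the knockout above and 9 (16.7%) had the wild type above. By p-value in the whole lists these were 10 (18.5%) and 2 (3.7%). The 6 member sites come from 4 genes and were not tested. Wild type 2 was the lowest library by p-value percentile at 5 of the 6 sites, and knockout 1 the highest at 5; at the main Ncl site wild type 1 and knockout 1 both lack a finite log10 p and have no order. Leaving out 1 library widens the background as well, since fewer libraries have to be in order. Among the 6589 shared regions, with peaks that lack a finite log10 p treated as ties, knockout 2 alone lay above both wild-type libraries at 4 of the 6 sites, beside 35.5% of all such regions. Without knockout 2 the count was 5 of 6 beside 32.5%, without wild type 1 it was 6 of 6 beside 32.3%, and without wild type 2 it was 4 of 6 beside 35.1%. The 6 of 6 includes the main Ncl site, at 97.6 in wild type 2 and 97.7 in knockout 2. In the whole lists these were 98.2 and 98.1, so the site would not count there. Among the shared regions no member site had the reverse order with a library left out, beside 34.8% to 36.7% of the regions.

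The genes host snoRNAs, and some peaks reached into them. RefSeq places 12 snoRNA genes inside the 8 genes, 5 in Nop56, 4 in Nop58, 2 in Ncl and 1 in Dkc1. An annotated snoRNA lay inside 3 of the 5 members with a peak, beside 2.11% of the 9072 genes with a peak that RefSeq names. The main Ncl site covered 47 of the 116 bases of Snora75, a box H/ACA snoRNA at positions 86351170 to 86351285, in 3 libraries. In wild type 2 its edge lay at position 86351156 and it covered none of them. The upstream Nop56 site covered all 63 bases of Snord57, a box C/D snoRNA at positions 130278026 to 130278088, in the same 3 libraries and none in wild type 2.

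Overlap of this kind was rare. A peak over an annotated snoRNA gene was found in 5 of 15487 regions, or 0.0323%, and 2 of the 5 were those of Ncl and Nop56. Only 2.11% of the genes with a peak that RefSeq names host a snoRNA, so 0.0323% is not a like background for host genes. The share among regions of host genes is not given here. The other 10 snoRNA genes of the members were not touched by a peak. The nearest of those in genes with a peak lay 111 bases from the upstream Nop56 site, and the nearest in Nop58 lay 1785 bases from its peak. The peaks were listed as exon blocks of the host gene, and whether reads came from the snoRNA or from host RNA was not tested.

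To place the 8 genes, a list of 143 genes of ribosome biogenesis was used, the members included. Of these, 92 had a peak in some library and 53 in all 4 libraries, which is 57.6% of those with a peak, beside 57.1% of all genes. The 53 had a median strength percentile of 89.5 for their best peak, as a mean over the libraries, where the median of all 5683 such genes was 66.4. The list was chosen with earlier results of these data known, so these medians are a description only. Ncl at 98.8 ± 0.729 (SD, n = 4 libraries), Nop58 at 96.2 ± 2.59 and Nop56 at 93.9 ± 3.81 were above that median of 89.5, and Fbl at 71.4 ± 11.3 was below it. The mean for Nolc1 was 83.3 ± 14.4 over its 3 libraries.

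**Figure D4:**
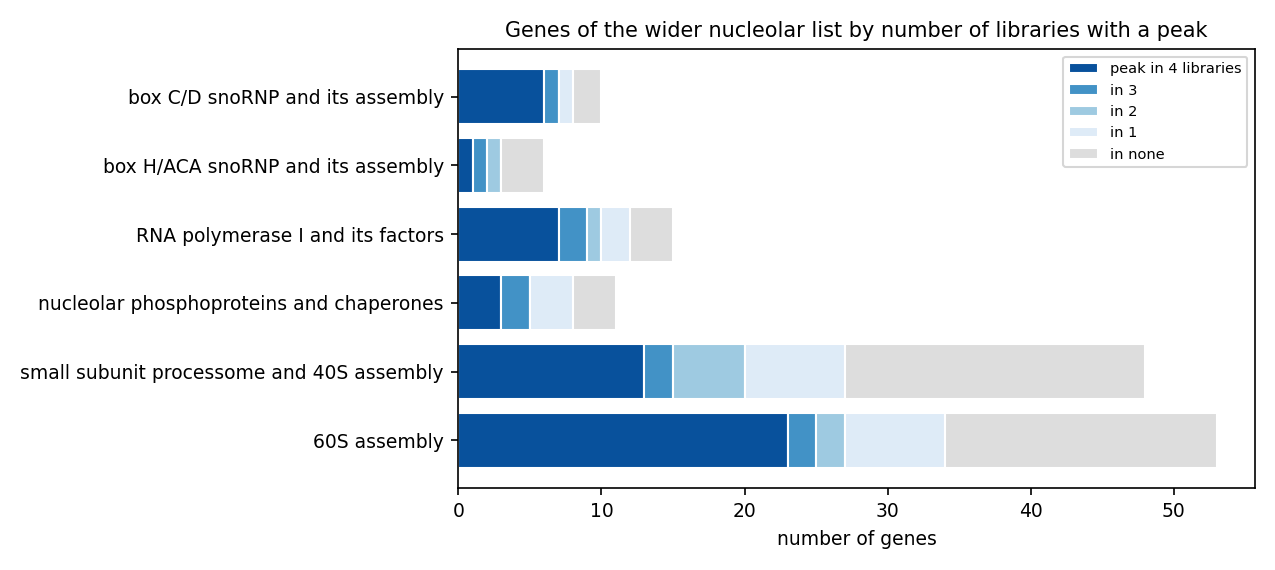
Number of genes of the wider nucleolar list, by role, with a peak in 4, 3, 2, 1 or none of the libraries; the bar length is the number of genes in the role. The box C/D particle genes have 6 of 10 in all 4 libraries and the box H/ACA particle genes 1 of 6. These are 75% and 33.3% of those with a peak, beside 57.1% of all genes with a peak.

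Of all genes with a peak, 57.1% had one in every library. The box C/D particle and its assembly factors had one in every library in 6 of 10 cases, 75% of the 8 with a peak. Besides the 3 members these were Znhit6 and Znhit3, which act in assembly of the particle, and Snu13, the protein that first binds the guide snoRNA. Znhit6 had folds between 45.7 and 92.0 and a mean percentile of 88.4 ± 19.7 (SD, n = 4), which was 58.9 in knockout 1 and at least 97.6 in the other libraries. Snu13 resembled Fbl, with folds between 2.02 and 6.34. Of the 6 box H/ACA genes, Nop10, a core protein of the particle, was the only one in every library, at a mean percentile of 64.8 ± 5.42. This was 33.3% of the 3 with a peak. The roles hold few genes and the difference between them was not tested. Gar1 was listed in 3 libraries, Naf1 in 2, and Dkc1 was among the 3 with none.

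Of 15 genes of RNA polymerase I and its factors, 7 had a peak in every library, 58.3% of the 12 with a peak, beside 57.1% of all genes. The strongest were the polymerase subunits Cd3eap (98.7 ± 0.671) and Twistnb (98.4 ± 0.755), with folds between 208 and 657, and Taf1d, a subunit of the promoter selectivity factor (87.3 ± 2.91). Among the 11 nucleolar phosphoproteins and chaperones, Ncl, Lyar (95.6 ± 1.49) and Mybbp1a (89.5 ± 3.12) were in every library, 37.5% of the 8 with a peak. Gnl3, Nop53 and Tcof1 were listed in knockout 1 alone, the library with the longest list, at percentiles of 32.6 to 46.2. Of the 92 genes of the wider list with a peak, 20 were in a single library. The share of all genes listed in a single library, or in knockout 1 alone, is not given here. Whether these counts are unusual therefore cannot be said.

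Assembly of the small subunit was represented in every library by 13 of 48 genes, 48.1% of the 27 with a peak. Among all genes with a peak the share was 57.1%. The strongest of the 13 were Utp14b (99.3 ± 0.176), Utp3 (98.5 ± 0.682) and Nol6 (95.9 ± 0.456). Utp3 and Nol6 are components of the processome that cleaves the precursor. Utp14a, the other Utp14 gene of the list, had no peak. Whether reads listed under Utp14b came from another gene was not tested. Assembly of the large subunit, the role of Bop1, had 23 of 53 genes in every library, 67.6% of the 34 with a peak. They were led by Rrs1 (98.9 ± 0.466), Pelp1 (98.9 ± 0.297) and Ftsj3 (98.7 ± 0.433). Folds of these 6 strongest genes ranged from 128 to 1410. Wdr12, which acts in a complex with Bop1, was in every library at a mean percentile of 84.0 ± 2.14, and Pes1, the third protein of that complex, had no peak. When the 53 genes were ordered by the mean fold percentile of their best peak, Snu13, Fbl, Mphosph10 and Nop58 were the 4 lowest, Nop56 was 17th and Ncl 30th.

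Of the 135 genes that are not members, 3 were listed for the wild-type pair alone (Nol9, Pno1 and Utp18) and 1 for the knockout pair alone (Nop16, a factor of the large subunit). Shares over all genes with a peak were 1.56% and 2.27%, as above, and these 4 are 3 and 1 of the 87 with a peak. The peaks were mostly weak. Pno1 had folds of 1.81 and 3.49 and Nop16 had 9.61 and 8.96, each within a site common to both libraries. The Utp18 peaks of the wild-type libraries lay at different sites. Nol9 had 1 common site, at folds of 9.04 and 2.88, and a further peak in wild type 1 alone at a fold of 1270 and a percentile of 97.8. The counts on the whole list of 143 lean on single libraries. The wild-type-only genes numbered 6 when wild type 1 was left out, 8 for wild type 2, 7 for knockout 1 and 4 for knockout 2. The knockout-only genes numbered 4, 3, 4 and 10 in the same order. With a library left out a genotype is judged from 1 list, for every gene. The share over all genes under that setting is not given here, so these counts have no background.

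The gene of the wider list closest to each member by the percentiles of its best peak was found among the 49 other genes present in every library. For Ncl it was Utp3, with a mean absolute difference of 0.281 percentile points over the 4 libraries. For Nop58 it was Lyar (1.15), for Nop56 the large subunit factor Ppan (1.81) and for Fbl Nol8 (5.47). Lyar had 95.7 and 93.5 in wild type and 97.1 and 96.1 in the knockout. It was picked by these percentiles, so sharing the order of libraries with Nop58 is no separate result. Its folds of 7.35 to 15.7, which were not used in the choice, were near the range of Nop58.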

How the data were processed

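The members and gene lists were chosen with earlier results of these data known. MeRIP-seq peak lists of 2 wild-type and 2 Mettl5 knockout libraries were used, grouped by the labels. Of tools, HISAT2 and HOMER are named in the submitters' processing notes, as is the mm10 build, with no role stated. The peak caller is not given in the sources used here. Peaks were called per library. The authors deposited for each peak a fold enrichment (a ratio), a p-value and 2 log10 columns, for the p-value and for its adjusted value, per the file headers. Depth per library is unknown.

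Between 3 and 6 peaks per list on other sequences than the main chromosomes were dropped. A site, or region, is a set of peaks linked by 1 bp or more of exon block overlap, on either strand. Deposited starts count from 0, and positions here count from 1. Strength is the percentile of the p-value in its list, ties sharing their mean rank, and a gene takes its best peak. RefSeq genes of GRCm38.p6 gave gene ends and snoRNA genes; they held the symbols of 92.7% of the peaks, and 97.8% of those overlapped the gene. No sequence of the peaks was analysed here. Where no source names strand, overlapping genes cannot be told apart.

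Named genes were the 8 members, up to 3 other genes per role with the strongest peaks in all libraries, those that followed the genotype, and the gene closest to each member; others were named after their values were seen. Joining and ranking were tested on simulated data. No statistical test was run. Python 3.11.15, numpy 2.4.6, pandas 2.3.3 and matplotlib 3.10.9 were used. Alternatives were an adjusted p-value under 0.05, the upper 50% of every list by p-value, equal list lengths, a reciprocal overlap of 50%, whole spans, the same strand, other strength ranks and leaving out each library.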

Additional observations from a re-analysis of the deposited data

How the results depend on the processing

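The 4 members and 6 sites present in every library kept those counts with an adjusted p-value under 0.05, the upper 50% of every list and equal list lengths, and the 6 sites also with a reciprocal overlap of 50%, whole spans and the same strand. Leaving out each library gave 4 to 5 members in every library, 0 wild-type-only and 0 to 1 knockout-only members (Nolc1, without wild type 2). It gave 6 to 7 sites, and 4 to 6 sites with the knockout above. The count of 6 arose without wild type 1, among 7 sites with that of Nolc1 included, and without knockout 2. The latter counts the main Ncl site, where the p-values of wild type 1 and knockout 1 have no order. For the wider list, leaving out each library gave 54 to 57 genes in every library in place of 53. It gave 4 to 8 wild-type-only and 3 to 10 knockout-only genes, since a genotype was then judged from 1 list. No share over all genes stands beside these counts. The upper 50% of every list gave 46 genes of the wider list in every library, 0 wild-type-only and 2 knockout-only. Equal list lengths gave 53, 2 and 0 in the same order. The count of sites with the knockout above was itself chosen after the data were seen, as were its alternatives (ranks within the shared set, by fold, and at equal length); they left 3 or 4 sites with the knockout above. Ranked by fold, the mean percentile of the best peak was 80.8 for Ncl, 18.4 for Nop58, 54.2 for Nop56, 5.57 for Fbl and 61.3 for Nolc1. As the median over a gene's peaks it was 85.2 for Ncl and 85.4 for Nop56. The cause of these moves was not tested. No paired analysis was possible because replicate numbers are given for the knockout libraries alone. With depth unknown, peaks missing for want of reads cannot be told from sites without enrichment.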
